A study of Homo sapiens with 6 samples.

Results

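Laminins are three-chain proteins of the basement membrane, the sheet of matrix on which epithelial cells rest, and integrins are the two-chain receptors by which cells hold on to laminin, collagen and fibronectin. The genes described here are the integrin alpha and beta chains and the laminin alpha, beta and gamma chains, found by gene symbol in the annotation of the Affymetrix HG-U133 Plus 2.0 array. There were 35 such genes with a probe set of their own among 19775 named genes, 25 integrin chains and 10 laminin chains, each represented by its brightest probe set, the one with the highest mean of log2(signal + 16) over all arrays. ITGB6 has probe sets that are also annotated to another gene, so it is not described, and other chains of these families were not analysed here. RNA came from Hep3B, a human hepatocellular carcinoma cell line, stably transfected with a plasmid and grown under G418. Clone D20 carried plasmid siSDHB, made to silence SDHB, a subunit of the mitochondrial enzyme succinate dehydrogenase, and the control was clone 2 of cells with plasmid pU6. Each clone was hybridised to 3 arrays, named A, B and C. Each group is a single clone and no label says that its arrays came from separate cultures, so the silencing and the clone cannot be told apart. The p-values here reflect the spread among arrays within each clone and nothing more, and that spread may be technical. The SDHB level was not analysed here.

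An integrin alpha chain reaches the cell surface only when paired with a beta chain, and the alpha chain largely sets which ligand the pair binds. ITGB1 is the common partner of most alpha chains, while ITGB4 pairs with ITGA6 alone and joins laminin to intermediate filaments. A laminin trimer joins 1 alpha, 1 beta and 1 gamma chain. LAMA5, LAMB1, LAMB2 and LAMC1 form the laminins of many epithelial basement membranes, LAMA4 is typical of vessels and mesenchyme, and LAMB3 belongs to the laminin that anchors stratified epithelium.

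Most of the chains that changed were higher in D20. Of the 35 genes 25 had a brightest probe set that passed the filter on low values, a mean of log2(signal + 16) over the 6 arrays of at least that of a signal of 43.2, and were tested. Among these, 11 rose (44%), against 23.7% of all 13781 genes tested (44.5% of these genes, and 36.5% of probe sets, were called in either direction), and 2 fell (8%), against 20.8% of all genes. A rise of at least 2-fold was seen for 9 of the 25, against 10.8% of all genes, and a fall of at least 2-fold for 2 of the 25 (8%), near the 6.57% of all genes. The arrays of the clones did not overlap for 13 of the 25 (52%), against 54.1% of all genes. The median log2 fold change, D20 over control, was 0.36 for the 25 chains and 0.04 for all genes. Differences are on the log2(signal + 16) scale, tested by limma, the p-values being adjusted by Benjamini-Hochberg across the 32768 probe sets that passed the filter. The balance of directions in the whole table depended on the scaling. In the comparison as described, all probe sets called higher numbered 6397 and all probe sets called lower 5555, against 9128 and 3341 with spike-in scaling and 4975 and 6883 with median centring. ITGA3, LAMB3 and ITGAM passed the filter through the clone in which they were brighter, with a mean signal below 43.2 in the other, so these shares are a description of the tested chains only.

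**Figure D1:**
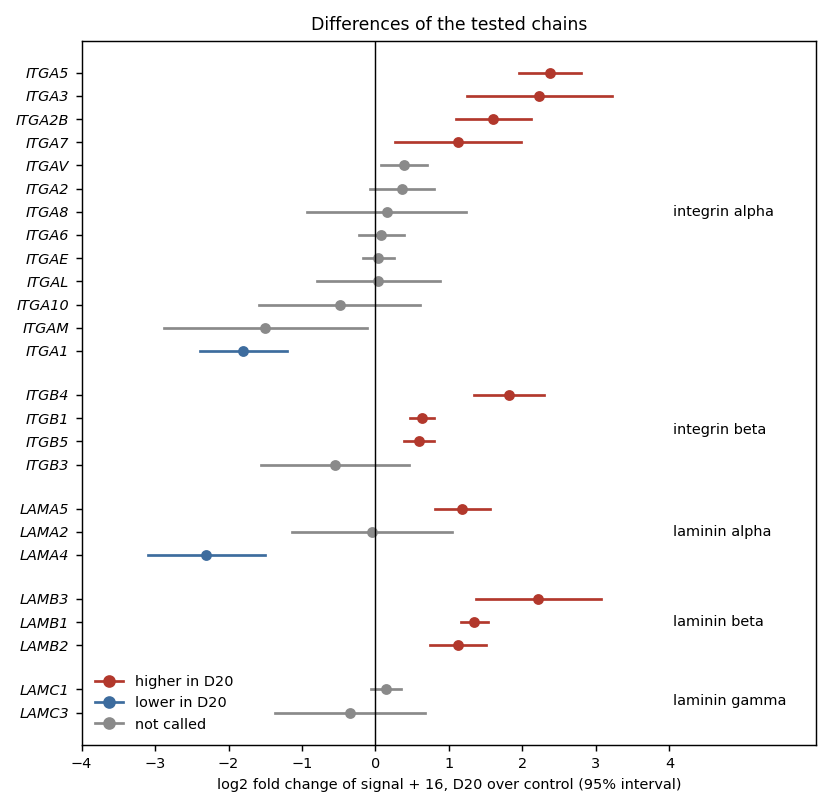
The log2 fold change of signal + 16, D20 over control (x axis), is shown for the 25 tested chains, grouped by chain type, with points for the estimate and lines for limma's 95% interval. The intervals of ITGA5 (1.95 to 2.80) and LAMB1 (1.16 to 1.53) lie well above 0, and those of ITGA1 (-2.39 to -1.21) and LAMA4 (-3.10 to -1.51) well below it.

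Among the laminin chains all 3 tested beta chains rose, against 23.7% of all genes tested. One of them, LAMB3, passed the filter through D20, and LAMB4 did not pass it. LAMB1, the beta chain of most laminins, had signals of 6733.8, 5902.0 and 6245.8 on the D20 arrays, against 2458.3, 2476.3 and 2450.7 on the control arrays. Every D20 array lay above every control array, and the control arrays differed from each other by little. The difference was 1.35 ± 0.08 on the log2 scale (SE, n = 3 each), or 2.54-fold (adjusted p = 8.87e-08, limma with Benjamini-Hochberg), and a second probe set gave 1.53. LAMB2, which takes the place of LAMB1 in the laminins of kidney glomeruli and synapses, had 785.3, 1140.3 and 812.5 in D20 cells, against 414.0, 462.8 and 345.6 in control cells. The D20 arrays were all higher, the fold change being 2.18 (log2 1.12 ± 0.18, adjusted p = 0.000252). LAMB3 had 229.3, 190.7 and 254.4 in D20 cells, against 33.1, 17.7 and 66.4 in control cells. It was dim in the control clone and all D20 arrays were higher, with a log2 difference of 2.22 ± 0.39 (adjusted p = 0.000667) whose size depends on the pseudocount, 2.68 and 1.51 with pseudocounts of 1 and 64.

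The laminin alpha chains moved in opposite directions. LAMA5 had signals of 1551.0, 1217.8 and 2040.9 on the D20 arrays, against 600.8, 790.3 and 666.0 on the control arrays. All D20 arrays were higher, by 1.18 ± 0.17 on the log2 scale, or 2.27-fold (adjusted p = 0.000148). LAMA4 had 100.2, 53.4 and 25.7 in D20 cells, against 290.5, 311.3 and 388.8 in control cells. The D20 arrays lay below all control arrays, and the level fell by 2.31 ± 0.37 on the log2 scale, or 4.94-fold lower (adjusted p = 0.000282). No other LAMA4 probe set passed the filter, so this fall rests on a single one. LAMA2, the alpha chain of muscle laminin, had 55.0, 93.5 and 28.9 in D20 cells, against 79.0, 33.6 and 66.8 in control cells. Its arrays overlapped (log2 difference -0.05, 95% interval -1.14 to 1.04).

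Neither tested gamma chain passed the test, though LAMC1 did with spike-in scaling (0.36, adjusted p = 0.0203). LAMC1, the gamma chain shared by most laminins, had 3842.9, 3880.0 and 4521.8 in D20 cells, against 3656.0, 3530.3 and 3874.9 in control cells. The arrays overlapped, and the log2 difference of 0.14 had a 95% interval of -0.06 to 0.34 (adjusted p = 0.261), whose upper end is below the lower end for LAMB1, 1.16. LAMC3 was dim, at 53.8 ± 23.9 in D20 cells and 73.6 ± 29.9 in control cells (SD, n = 3 each; adjusted p = 0.607).

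**Figure D2:**
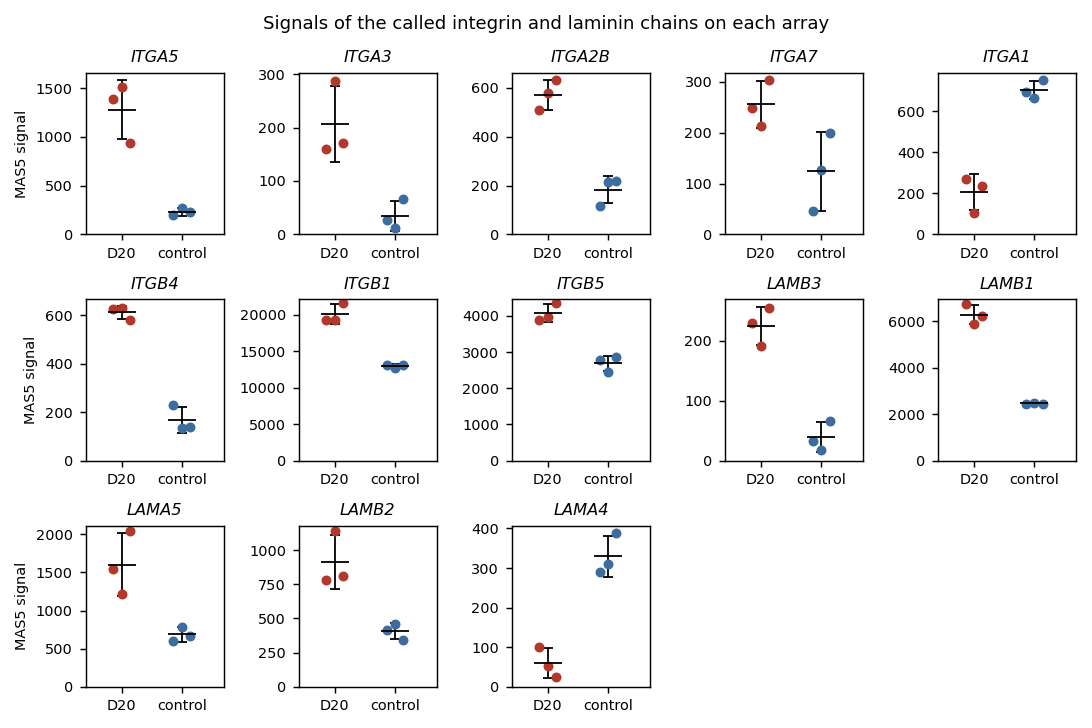
MAS5 signal (y axis, linear and starting at 0) of the 13 called chains in D20 and control cells, with a point for each of 3 arrays per clone and bars for the mean ± SD. The D20 points lie above the control points for 11 chains, and below them for ITGA1 and LAMA4.

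Among the receptors, 3 of the 4 tested beta chains rose, against 23.7% of all genes tested. ITGB1 had signals of 19231.6, 19353.5 and 21666.2 on the D20 arrays, against 13124.4, 12708.5 and 13053.0 on the control arrays. The groups were far apart relative to their spread, although the change was small, 1.55-fold (log2 0.63 ± 0.08, adjusted p = 2.87e-05). ITGB4 had 624.1, 629.9 and 580.1 in D20 cells, against 228.3, 132.9 and 138.8 in control cells. Its D20 arrays were tightly grouped and all higher, by 1.82 ± 0.22 on the log2 scale, or 3.52-fold (adjusted p = 2.83e-05). ITGB5, which pairs with ITGAV to bind vitronectin, had 3890.8, 3973.9 and 4360.0 in D20 cells, against 2769.5, 2451.3 and 2852.8 in control cells. The D20 arrays were again all higher (1.51-fold, log2 0.60 ± 0.09, adjusted p = 0.00026), but only by this probe set. ITGB3, the beta chain of the platelet fibrinogen receptor, had 88.8, 45.8 and 26.6 in D20 cells, against 68.4, 72.3 and 100.8 in control cells, and overlapped (adjusted p = 0.391).

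ITGA5, which with ITGB1 forms the classical fibronectin receptor, rose. It had signals of 1394.4, 1512.0 and 938.4 on the D20 arrays, against 195.3, 271.2 and 227.2 on the control arrays. The arrays of the clones were far apart, and the fold change was 5.18 (log2 2.37 ± 0.20, adjusted p = 9.76e-07). ITGA3, whose pair with ITGB1 binds laminins holding LAMA3 or LAMA5, had 159.9, 287.6 and 171.1 in D20 cells, against 27.3, 11.2 and 65.9 in control cells. It was dim in the control clone, and its log2 difference of 2.23 ± 0.46 (adjusted p = 0.00189) was 2.81 and 1.46 with pseudocounts of 1 and 64.

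ITGA2B, known as the platelet chain that joins ITGB3 to bind fibrinogen, was also higher in D20. It had 508.5, 579.1 and 631.0 in D20 cells, against 117.9, 213.6 and 218.3 in control cells. The groups did not overlap (3.04-fold, log2 1.60 ± 0.24, adjusted p = 0.000147), and the other tested probe sets gave 2.04 and 2.56. The 6 listed platelet markers summed to 260.9 to 380.8 on the D20 arrays and 205 to 302 on the control arrays, 4 of them being below 43.2 in both clones and none passing the test. PPBP, a platelet chemokine, was near 0, at 1.8 ± 0.1 in D20 cells and 7.8 ± 4.2 in control cells (SD, n = 3 each). Means in D20 cells against control cells were 82.3 and 41.8 for TUBB1, 25.6 and 7.6 for PF4, and 42.8 and 30.6 for GP6. They were 40.2 and 42.2 for GP9, and 117.2 and 117.6 for GP1BA. ITGA7, the laminin receptor chain of muscle, had 249.6, 213.5 and 304.1 in D20 cells, against 45.5, 126.1 and 199.9 in control cells. Its groups came close, and the log2 difference of 1.12 ± 0.39 was near the threshold (adjusted p = 0.0408). It failed the threshold in 11 of the alternatives tried, the value without control replicate A being 0.62.

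ITGA1 was the integrin chain that fell. With ITGB1 it binds collagens, type IV collagen in particular, and laminin. It had 272.6, 106.2 and 235.8 in D20 cells, against 696.1, 665.3 and 754.3 in control cells, so every D20 array was well below any control array. It fell by 1.80 ± 0.27 on the log2 scale, or 3.48-fold lower (adjusted p = 0.000196), and both other tested probe sets were called lower too, at -1.27 and -1.92. ITGA2, the other widely expressed collagen receptor chain, had 1561.9, 984.8 and 1338.6 in D20 cells, against 1127.9, 710.9 and 1192.4 in control cells. The ranges overlapped, and the difference of 0.36 did not pass the test (95% interval -0.07 to 0.80, adjusted p = 0.186), though it did with spike-in scaling and with the replicate block.

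ITGA6, the partner of ITGB4, had 1413.1, 1085.0 and 1161.2 in D20 cells, against 1342.0, 1010.1 and 1110.3 in control cells. The arrays overlapped by this probe set (log2 0.08, 95% interval -0.22 to 0.38), but the other, with means of 1430.1 in D20 cells and 957.8 in control cells, was called higher at 0.57 ± 0.12 (adjusted p = 0.00186). Both are about equally bright, so the call of ITGA6 rests on which is taken, and it was higher when they were averaged (0.33, adjusted p = 0.0322). ITGAV, the alpha chain of the vitronectin receptors, had 5171.8, 3986.8 and 5559.2 in D20 cells, against 4543.3, 3063.2 and 3650.3 in control cells. The ranges overlapped and the difference of 0.39 (95% interval 0.07 to 0.71) narrowly missed the threshold (adjusted p = 0.0536), passing it in 7 of the 17 alternatives. ITGAE, which pairs with ITGB7 in lymphocytes to bind E-cadherin, had 3903.2, 4831.9 and 4559.3 in D20 cells, against 3972.3, 4410.3 and 4505.5 in control cells. Its 95% interval was -0.17 to 0.25 around 0.04. ITGA8 and ITGA10 lay between 16.6 and 97.5 on all arrays and were not called.

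The alpha chains that pair with ITGB2 in leukocytes were dim or not called. ITGAL, the alpha chain of the lymphocyte receptor for ICAM1, had 144.0, 146.1 and 59.3 in D20 cells, against 85.7, 141.2 and 96.8 in control cells. ITGAM, a chain of the complement receptor of macrophages, had 8.4, 80.6 and 2.7 in D20 cells, against 75.0, 82.7 and 95.0 in control cells. One D20 array overlapped the control arrays, and the log2 difference of -1.50 was not called (adjusted p = 0.0852) but was without D20 replicate B (-2.23, adjusted p = 0.0112). The 7 of 9 leukocyte markers named on the array summed to 262.9 to 481.1 on the D20 arrays and 439.7 to 559.7 on the control arrays. PTPRC, the leukocyte common antigen, was at 36.0 ± 13.6 in D20 cells and 36.3 ± 4.3 in control cells (SD, n = 3 each), below the filter, while LCP1, an actin-binding protein of leukocytes, fell by 1.37.

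The 10 chains whose brightest probe set did not pass the filter were ITGA4, ITGA9, ITGA11, ITGAD, ITGAX, ITGB2, ITGB7, ITGB8, LAMA1 and LAMB4. None had a mean above 51.6 in either clone. For ITGA4, a receptor for VCAM1, the D20 arrays gave 30.8, 56.6 and 51.7, against 10.8, 3.8 and 5.4 in control cells. LAMA1, the laminin alpha chain of early embryos, gave 55.3, 45.3 and 37.8, against 18.0, 10.9 and 3.0. These groups did not overlap. When all probe sets were tested by limma, ITGA4 was called higher (log2 1.45, adjusted p = 0.0323). LAMA1 (1.25, adjusted p = 0.0769) and ITGB7 (-0.28, adjusted p = 0.709) were not called.

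Set beside their partners, the chains of a receptor often differed in call. Of 24 known integrin heterodimers, 13 had both chains tested. Both chains were called higher in 3 of them, ITGA5 with ITGB1, ITGA3 with ITGB1 and ITGA7 with ITGB1. In ITGA1 with ITGB1 the alpha chain fell while the beta chain rose. In ITGA6 with ITGB4 the beta chain rose by 1.82 and the alpha chain did not pass the test. ITGAV with ITGB5 showed the same arrangement, the beta chain at 0.60 and the alpha chain at 0.39. In ITGA2B with ITGB3 the alpha chain rose and the beta chain was dim and not called (-0.55, 95% interval -1.56 to 0.45). Among the 12 partners of ITGB1, 3 rose, 1 fell, 5 were not called and 3 were not tested. Over all genes tested 23.7% rose and 20.8% fell. Of the partners that rose, ITGA3 passed the filter through D20 and ITGA7 was near the threshold.

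**Figure D3:**
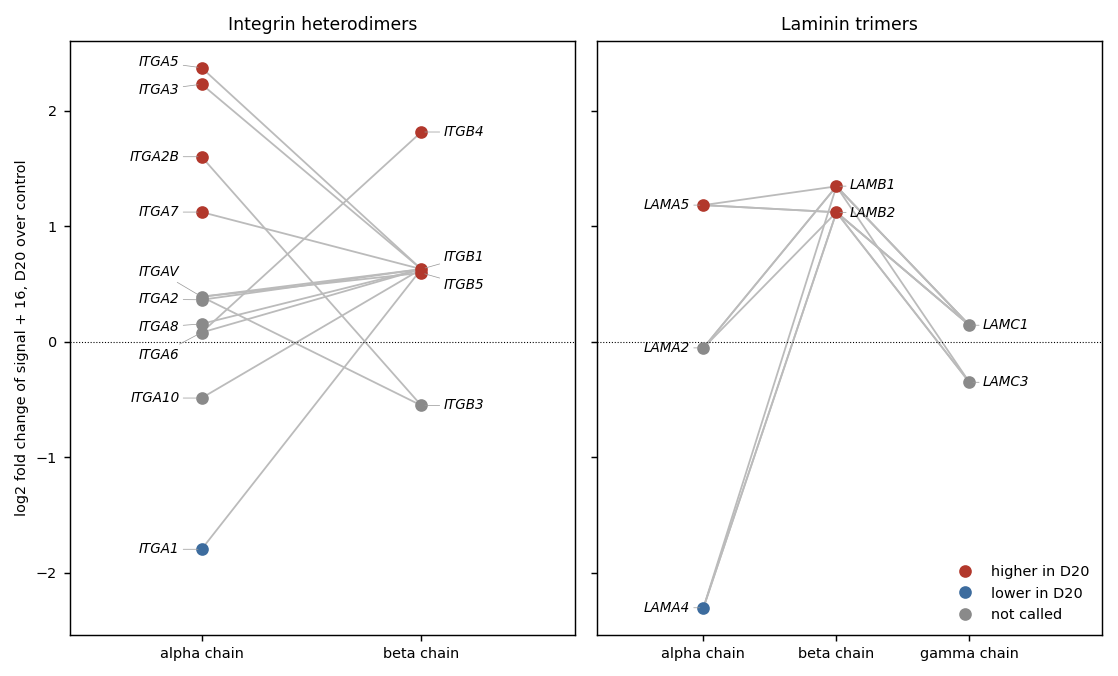
The log2 fold change of signal + 16, D20 over control (y axis), is plotted for each chain by its type, with grey lines joining chains that are known to form a heterodimer (left) or a trimer (right), for complexes with every chain tested. Lines from ITGA5 (2.37) and ITGA3 (2.23) end at ITGB1 (0.63), as does that from ITGA1 (-1.80), and the beta chains LAMB1 and LAMB2 are joined both to LAMA5 (1.18) and to LAMA4 (-2.31).

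The laminin trimers differed by their alpha chain. In the trimers of LAMA5 with LAMB1 or LAMB2 and LAMC1 the alpha and beta chains rose by 1.12 to 1.35 and the gamma chain did not pass the test. In those of LAMA4 with the same partners the alpha chain fell by 2.31 while the beta chain rose. Of 15 known trimers 9 had all chains tested, and in 0 of them were all 3 chains called in 1 direction. With spike-in scaling, where LAMC1 was called higher, all 3 chains of LAMA5 with LAMB1 and LAMC1, and of LAMA5 with LAMB2 and LAMC1, were higher. Set beside their receptors, LAMA5 (1.18) rose with ITGA3 (2.23) and ITGB4 (1.82), chains of receptors for laminins that hold it, while ITGA6 (0.08), a receptor chain for the same laminins, was not called by its brightest probe set. Signals of different probe sets cannot be set against each other.

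Several probe sets of a gene did not always give the same answer. Of the 13 called chains 6 had 1 tested probe set and 7 had more, and in 4 of these 7, ITGA1, ITGA2B, ITGB1 and LAMB1, every tested probe set had the same call. For ITGB1 these were 0.87 and 1.07 besides 0.63, while its 4 remaining probe sets were too dim to be tested. A second probe set of ITGB4 was called higher (1.24) and another was not (0.71, adjusted p = 0.311). The 3 other probe sets of ITGB5, at -0.20, 0.12 and -0.33, were not called, nor was the other of ITGA7, at -1.18 (adjusted p = 0.143). No chain had probe sets called in opposite directions.

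**Figure D4:**
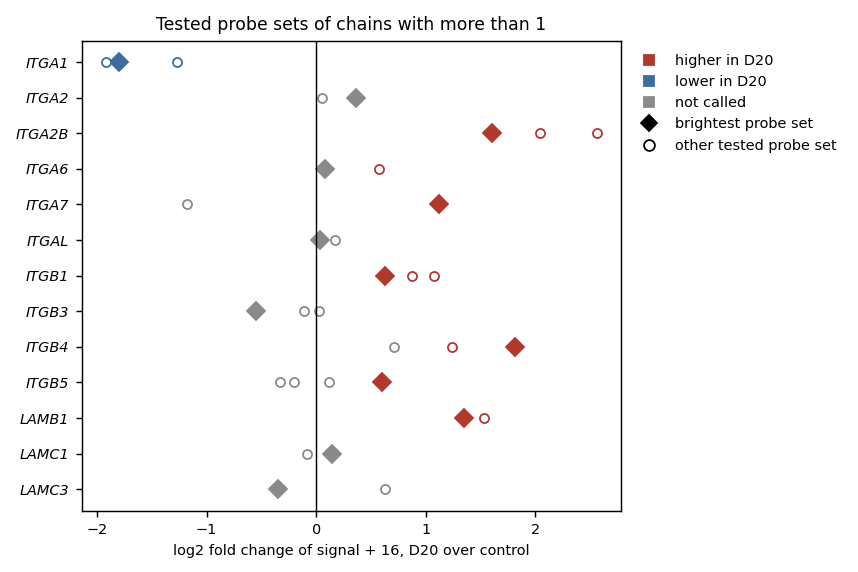
The log2 fold change of signal + 16, D20 over control (x axis), of every tested probe set is shown for the 13 chains with more than 1, with filled diamonds for the brightest and open circles for the others. The probe sets of ITGA1, ITGA2B, ITGB1 and LAMB1 lie on 1 side of 0 and are all called, while those of ITGA7 and ITGB5 lie on both sides.

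The start regions of a receptor and a ligand chain that rose, ITGA5 and LAMB1, and of a receptor and a ligand chain that fell, ITGA1 and LAMA4, are shown to set the letters beside the direction. They are the 250 bases before the annotated start in RefSeq (GRCh38.p14), 5′ to 3′ on the strand of the gene, ITGA5 at chr12:54419267-54419516 (minus), LAMB1 at chr7:108003162-108003411 (minus), ITGA1 at chr5:52787666-52787915 (plus) and LAMA4 at chr6:112254568-112254817 (minus). Capitals mark matches, on either strand, to the GC box GGGCGG, the TEAD site GGAATG, the AP-1 site TGANTCA or the hypoxia response core ACGTG.
ITGA5: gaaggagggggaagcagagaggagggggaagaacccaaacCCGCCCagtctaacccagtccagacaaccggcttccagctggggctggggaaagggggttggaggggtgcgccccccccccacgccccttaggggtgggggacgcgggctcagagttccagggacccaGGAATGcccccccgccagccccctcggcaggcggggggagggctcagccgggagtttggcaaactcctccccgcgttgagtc
LAMB1: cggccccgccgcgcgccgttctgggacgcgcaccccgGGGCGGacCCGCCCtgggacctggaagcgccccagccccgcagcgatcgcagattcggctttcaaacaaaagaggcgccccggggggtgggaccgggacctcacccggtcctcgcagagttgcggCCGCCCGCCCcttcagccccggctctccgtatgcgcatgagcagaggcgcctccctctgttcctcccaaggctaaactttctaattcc
ITGA1: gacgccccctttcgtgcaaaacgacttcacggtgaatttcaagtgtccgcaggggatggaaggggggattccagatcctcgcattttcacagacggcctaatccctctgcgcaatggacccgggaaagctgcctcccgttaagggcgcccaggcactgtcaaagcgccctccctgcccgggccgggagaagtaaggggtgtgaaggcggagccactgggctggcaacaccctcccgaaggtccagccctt
LAMA4: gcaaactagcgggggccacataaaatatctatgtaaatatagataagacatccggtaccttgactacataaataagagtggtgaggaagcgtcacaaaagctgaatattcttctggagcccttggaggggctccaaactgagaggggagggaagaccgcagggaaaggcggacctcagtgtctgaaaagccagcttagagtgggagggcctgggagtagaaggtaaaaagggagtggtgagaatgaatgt
LAMB1 held 4 GC boxes, the last 2 overlapping, and ITGA5 held 1 GC box and 1 TEAD site, whereas ITGA1 and LAMA4 held no match to any of the 4 motifs. A start region was found in RefSeq's table for 24 of the 35 chains, the first being used for the 5 with more than 1. Of the 8 such chains that rose 7 held a GC box, as did 4 of the 9 that were tested and not called. The box was in 0 of the 2 that fell, and in 42.3% of 27305 promoters in the table. ITGA3, ITGA7 and ITGB4, which also rose, had no start region there. G and C made up 70.0% of the bases for ITGA5, 70.4% for LAMB1, 62.0% for ITGA1 and 48.4% for LAMA4. These counts take no account of base composition. The AP-1 site was in 0 of the 24 (6.6% of promoters) and the hypoxia response core in 2 of the 24 (18.7%), ITGA6 and ITGA11. The TEAD site was in 4 of the 24 (11.9%), 2 of them, ITGA5 and ITGB1, among the chains that rose. A match is a description of the letters and says nothing of binding.

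Genes next to the called chains went both ways. For the chains that rose, the median log2 fold change of the 10 nearest tested genes, 5 on each side, was below 0 around ITGA7 (-0.59), ITGA5 (-0.57), LAMB1 (-0.43), LAMB3 (-0.23) and LAMA5 (-0.09). It was above 0 around LAMB2 (0.04), ITGB1 (0.06), ITGB4 (0.14), ITGA2B (0.15), ITGA3 (0.34) and ITGB5 (0.53). Around ITGA1 and LAMA4, which fell, it was 0.30 and 0.31.

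Most of the other basement membrane components that were tested were higher in D20. Of 21 listed, 19 were named and 15 tested, 10 of which rose and 2 fell (median log2 fold change 0.87). Over all genes tested 23.7% rose and 20.8% fell. COL4A4 (3.11) and COL4A3 (2.91), type IV collagen chains found in kidney glomeruli, and COL4A2 (1.68), a chain of the common type IV collagen, rose. NTN4 (1.82), a laminin-related netrin that binds laminin gamma chains, rose too. The 3 collagen chains were dim in the control clone, with mean signals of 23.7 for COL4A4, 20.8 for COL4A3 and 27.6 for COL4A2. These means lie below the filter signal, so the 3 passed the filter through D20. The counts of this list therefore describe its tested genes only. The size of the 3 differences depends on the pseudocount. With pseudocounts of 1 and 64 it was 4.96 and 1.88 for COL4A4, 3.88 and 1.88 for COL4A3, and 2.27 and 0.99 for COL4A2. The other tested probe set of COL4A3 did not share its call. NID1, the nidogen that links laminin to type IV collagen, had a mean of 2484.4 ± 220.8 in D20 cells and 8666.8 ± 181.5 in control cells (SD, n = 3 each), and fell by 1.80 on the log2 scale (adjusted p = 9.55e-09). COL4A2 was called in the full comparison (adjusted p = 0.018) and not without D20 replicate A (1.72), D20 replicate C (1.45) or control replicate A (1.34). HSPG2, the proteoglycan perlecan, named after its value was seen, rose by 1.27.

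Ligands of the receptors that bind the Arg-Gly-Asp motif, and other matricellular ligands, were higher in 11 of 17 tested genes and lower in 1 (21 listed, median 1.09). The shares over all genes tested were 23.7% higher and 20.8% lower. CCN1 (2.77), a matricellular protein that several integrins bind, FBN1 (2.06), fibrillin, NPNT (1.72), nephronectin, a ligand of ITGA8 with ITGB1, and THBS1 (1.71), thrombospondin, rose. The other tested probe set of NPNT did not share its call. The THBS1 call was lost when probe sets able to match several transcripts were left out (0.30, adjusted p = 0.653). FN1, fibronectin, the ligand of ITGA5 with ITGB1 and named for that pairing, had a mean of 28418.5 ± 2611.4 in D20 cells and 26149.7 ± 622.9 in control cells (SD, n = 3 each). This difference of 0.12 did not pass the test (adjusted p = 0.294), so the receptor chain rose and its main ligand was not called, except with spike-in scaling (0.34) and by 1 of the 6 other tested probe sets of FN1. Among the fibrinogen chains, ligands of ITGA2B with ITGB3 that the liver secretes, FGG fell by 2.17, and FGA and FGB, named after their values were seen, rose by 1.09 and 1.71. Of 9 hepatocyte markers 7 were also lower in D20, and their part in these values was not tested.

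Collagens outside the basement membrane, the ligands of ITGA1, ITGA2, ITGA10 and ITGA11 with ITGB1, were higher in 2 and lower in 1 of 7 tested (11 listed, median 0.16). Among all genes tested 23.7% were higher and 20.8% lower. COL1A1 (7.78) and COL16A1 (2.55) rose and COL5A2 fell by 2.11. COL1A1 had a mean of 3780.0 ± 406.8 in D20 cells and 1.23 ± 0.50 in control cells (SD, n = 3 each). That control level is far below the filter signal, so COL1A1 passed the filter through D20. Its 7.78 is set by the pseudocount (5.88 with 64) and is no measured size. COL16A1 was at 3.30 and 1.68 with pseudocounts of 1 and 64. Its control arrays were far apart, at 18.6, 198.8 and 6.7, against 277.3, 333.3 and 311.6 in D20 cells, so its size is uncertain. COL1A1 had 1 of its 3 other tested probe sets called the same way, and with the pseudocount of 1 another probe set was the brightest and was not called (0.35, adjusted p = 0.397), while COL16A1 did not pass without the variance trend (adjusted p = 0.065). COL1A2, the second chain of type I collagen and named for that reason, was dim, at 84.2 ± 48.3 in D20 cells and 68.5 ± 16.2 in control cells (SD, n = 3 each), and not called. The 9 fibroblast markers summed to 4234 to 5047 on the D20 arrays and 1204 to 1408 on the control arrays, most of the D20 sum being COL1A1, while LUM and PDGFRA fell. Their part in the matrix values was not tested.

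Ligands on cell surfaces went both ways, with 3 of 8 tested genes higher and 2 lower (11 listed, median -0.13). For all genes tested these shares were 23.7% and 20.8%. JAM2 (4.32), a junction protein that binds integrins of ITGB1, MADCAM1 (2.42), the ligand of ITGA4 with ITGB7, and CDH1 (0.82), E-cadherin, the ligand of ITGAE with ITGB7, rose. ICAM3 (-1.07) and ICAM1 (-0.43), ligands of ITGAL with ITGB2, fell. ICAM1 was not called with spike-in scaling (-0.21) or when its probe sets were averaged (-0.23), and none of its 2 other tested probe sets shared its call. Of the chains of their receptors, ITGA4, ITGB7 and ITGB2 did not pass the filter and ITGAE and ITGAL were not called.

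Proteins that link integrins to the cell interior showed no single direction. Of 32 tested adaptors 12 rose and 6 fell (41 listed, median 0.27), against 23.7% and 20.8% of all genes tested. TNS1 (3.89), a tensin that binds beta chain tails and actin, APBB1IP (1.49), which brings talin to integrins, and CIB1 (1.32), which binds the tail of ITGA2B, rose. PARVA (-2.32), the parvin of the complex with ILK, and KANK1 (-1.61), which binds talin, fell, as did ILK itself (-1.12), named after its value was seen. Of the 5 other tested probe sets of PARVA 3 shared its call. The APBB1IP call was lost in 5 alternatives, down to 1.03 without control replicate B, and that of KANK1 without probe sets able to match several transcripts (-0.46, adjusted p = 0.213). The talins TLN1 (0.23) and TLN2 (0.50) and the kindlin FERMT2 (0.23), the direct activators of integrins and named for that role, did not pass the test. TLN2 passed it with spike-in scaling (0.71). Of the 2 other tested probe sets of FERMT2, 1 was not called either and the other was called.

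Membrane partners of integrins, 9 tested, were higher in 3 and lower in 4 (median -0.56), against 23.7% and 20.8% of all genes tested. PLAUR (1.37), the urokinase receptor, and CD47 (1.10), a partner of ITGB3 integrins, rose. CAV1 (-0.75), caveolin, CD81 (-0.67), a tetraspanin, and BSG (-0.56), basigin, fell. CD151, the tetraspanin that associates with the laminin receptors ITGA3 and ITGA6, named after its value was seen, fell by 0.51, in contrast to ITGA3, but not with spike-in scaling (-0.29). The calls of PLAUR and CD47 were lost without probe sets able to match several transcripts (0.51 and 0.35). That of BSG was lost with spike-in scaling (-0.34), without the variance trend, without D20 replicate C (-0.44) and without control replicate B (-0.42).

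**Figure D5:**
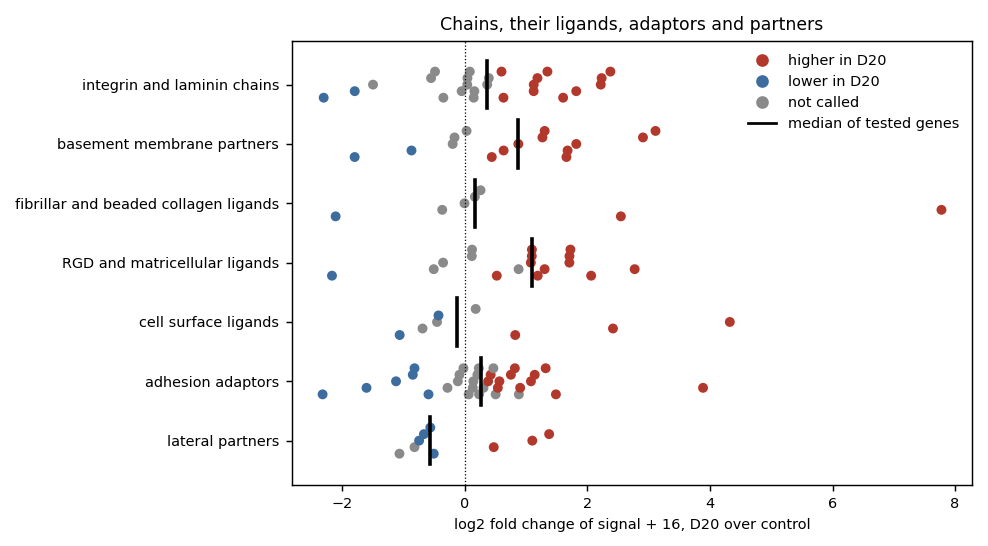
The log2 fold change of signal + 16, D20 over control (x axis), of each tested gene is shown for the chains and for 6 lists of ligands, adaptors and partners, with black bars for the medians. The medians are 0.36 for the chains, 0.87 for basement membrane partners, 1.09 for matricellular ligands and -0.56 for membrane partners.

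Across the arrays, the median signal was between 77.7 and 92.4, and log2 signals correlated across the tested probe sets, which are not independent of each other, with Pearson's r of 0.953 to 0.962 between D20 arrays, 0.964 to 0.967 between control arrays and 0.880 to 0.890 between the clones. The ratio of 3′ to 5′ signal of the GAPDH control, a sign of RNA quality, was 1.11 to 1.25 in D20 cells and 1.08 to 1.15 in control cells. For the ACTB control it was 1.40 to 1.68 in D20 cells and 1.42 to 1.90 in control cells. The ACTB gene had a log2 difference of 0.28 and was called higher (limma, adjusted p = 0.0397), while GAPDH, at 0.04, was not called. The hepatocyte markers, 9 of 10 of which were named, summed to 104418 to 115285 on the D20 arrays and 233214 to 240479 on the control arrays, with 7 lower, FGB higher and ALB at 43934.7 ± 3964.5 in D20 cells and 43677.7 ± 1274.6 in control cells (SD, n = 3 each). Over all genes tested 20.8% were lower and 23.7% higher. Of 7 endothelial markers PECAM1 rose (1.63) and the others had means of at most 51.6 in both clones and were not tested. With 3 arrays per clone the precision is limited. In bulk RNA a smaller number of cells with a transcript and less of it per cell cannot be told apart.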

How the data were processed

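The 6 arrays of type HG-U133 Plus 2.0 held Hep3B RNA, 3 from clone D20 and 3 from the control clone, and were grouped by sample title. The deposited values are intensity values on a linear scale, 1 per probe set and array, made with MAS5 per the submitters' processing notes; its version is not given in the sources used here. Gene symbols of probe sets came from the platform annotation that GEO holds and from Entrez identifiers of RefSeq (GRCh38.p14), and 1801 with several symbols were not named. Signals were transformed to log2(signal + 16). The 62 control probe sets and the 40% with the lowest mean on that scale, 21845, were left out. The other 32768 were compared by limma 3.58.1 in R 4.3.3 (eBayes with a variance trend, two-sided, no covariate), with Benjamini-Hochberg adjustment and a threshold of 0.05, which called 36.5% of probe sets and 44.5% of genes. The members and lists were chosen with earlier results of these data known. All members are described, and of each other list up to 5 called genes with the largest changes, besides ACTB, GAPDH and those named as exceptions. The fit was tested on simulated data with known changes. It recovered 40% of 2-fold, 72% of 4-fold and 98% of 8-fold rises, and 66% of 4-fold falls. A gene that was not called may therefore still differ. Correlations of deviations between D20 and control arrays of the same letter, over the tested probe sets, were -0.021, 0.052 and 0.0074 (A, B and C). Array B had the highest GAPDH ratio in both clones (1.25 in D20, 1.15 in control). Whether the letters mark a shared batch was not tested. Alternatives were pseudocounts of 1 and 64, other filters, scalings and probe set choices, no variance trend, a replicate block and leaving out each array.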

Additional observations from a re-analysis of the deposited data

How the results depend on the processing

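Of the 13 called chains 9 kept their call in every one of the 17 alternatives that gave them a value. The exceptions were ITGA7, ITGB1, ITGB4 and ITGB5. When each gene's probe sets were averaged, ITGA7 was at -0.028, ITGB1 at 0.038, ITGB4 at 0.62 and ITGB5 at 0.047, none called, and VCL, an adaptor, was at -0.079. Without probe sets ending in _s_at or _x_at ITGB5 was at -0.20 and KANK2 at -0.46, neither called. Chains called higher numbered 11, and 6 without those probe sets, where 20 chains were tested. Chains called lower numbered 2, and 1 there and with the mean of probe sets, since LAMA4 then failed the filter. Leaving out 1 array gave 10 to 11 higher and 2 to 3 lower. The median of all probe sets was 0.03, and 0.24 with spike-in scaling, where ITGB1 was at 0.85 and 14 chains were higher. With median centring these were -0.09, 0.51 and 10. With spike-in scaling all probe sets called lower numbered 3341, against 5555. It left 1 basement membrane gene, 1 cell surface ligand and 2 membrane partners lower, against 2, 2 and 4. Basement membrane genes called lower were 1 with no filter, with the 20% filter and with the replicate block, and 1 to 3 without single arrays, NID2 losing its call in each setting with 1. With the mean of probe sets 5 basement membrane genes and 7 adaptors were higher, against 10 and 12, and 1 cell surface ligand lower. Collagen ligands called higher were 1 with the pseudocount of 1, without the variance trend and without probe sets ending in _s_at or _x_at. In that last setting 7 matricellular ligands, 1 cell surface ligand and 0 membrane partners were higher, and 0, 1 and 2 lower. With the replicate block ITGA2 and ITGAV were called as well, making 13 chains higher. No label says whether arrays of the same letter belong together. Except where given, the cause of these changes was not tested. The 3 arrays per clone and the dim signals limit what can be seen for 10 of the 35 chains.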
